A study of Mus musculus with 26 samples.

Results

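Bone morphogenetic protein (BMP) signalling was followed through 10 genes in the fetal mouse gonad: the ligands Bmp2, Bmp4 and Bmp7, the secreted antagonists Nog and Grem1, the inhibitory Smads Smad6 and Smad7, and the target genes Id1, Id2 and Id3. The members were taken as these names and matched by symbol, and all 10 were found among the 57186 genes of the count table that holds every Fgf9 deletion and among the 31053 genes of the table that holds the Meis1 knockout. The study profiled polyadenylated RNA of gonads labelled XY from mouse embryos at stage E13.5, dissected away from the mesonephros, in 26 samples. The groups were wild type (WT, n = 3), the deletions Fgf9 Δ306 (n = 3), Δ225 (n = 6), Δ104 (n = 4) and Δ93 (n = 6), and a Meis1 knockout (Meis1 KO, n = 4). The labels give each genotype by its name alone, so the deleted intervals, the number of deleted alleles, the Meis1 allele, the strain, and the litters and clones behind the samples are not known here. Replicates are called biological in the later records and only numbered for WT and Δ306, and nothing says that they came from separate embryos, so p-values measure the spread between these samples, which may be technical.

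BMPs are secreted ligands of the TGF-β superfamily that bind paired type I and type II receptor kinases, which phosphorylate the receptor Smads. These join Smad4 and enter the nucleus, where the Id genes and the inhibitory Smads are among the direct targets, so that the latter close a negative feedback loop. Noggin and gremlin 1 bind the ligands outside the cell and keep them from the receptors. In the gonad, BMP2 is known as a product of the fetal ovary, where it acts together with the pre-granulosa transcription factor FOXL2, and BMP4 and BMP7 are known for their roles in germ-cell formation and in the gonadal mesenchyme.

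Total counts were 11582619 to 53392393 per library in the table of all deletions and 35468633 to 51732897 in the Meis1 table. Levels are given as CPM, the counts of each library rescaled to a common total after adjustment for composition, a scale that does not allow comparison between genes of different length. Fgf9 itself was at 9.53 ± 0.32 CPM in WT (mean ± SD, n = 3), 7.01 ± 4.73 in Δ225 (n = 6), 4.85 ± 1.76 in Δ104 (n = 4), 3.08 ± 0.863 in Δ93 (n = 6) and 2.48 ± 0.406 in Δ306 (n = 3). Meis1 was at 0.439 ± 0.209 CPM in Meis1 KO (n = 4) against 78.4 ± 26.5 in WT (n = 3). The summed level of 4 Y-linked genes was under 1/10 of the WT median in 7 libraries (Δ306 replicate 3, Δ225 replicate 4, Δ104 replicate 3 and Δ93 replicates 3 to 6), while Xist reached at most 6.42 CPM in any library. Runs without these libraries keep only replicates 1 and 2 of Δ306 and of Δ93, so a call lost there may reflect the smaller groups. WT replicate 1 had 10.8 CPM of 4 germ-cell markers summed, against 352 and 517 CPM in the other two WT libraries. The WT and Δ306 samples were described in the records apart from the other groups, with different wording and processing notes, so a difference of Δ225, Δ104 or Δ93 from WT or Δ306, or of Meis1 KO from WT, and a difference between these sets of samples cannot be told apart. The 5 Fgf9 groups were fitted together, and all comparisons with WT share the same 3 WT libraries.

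Bmp2 had the largest log2 fold change between deletions among the 9 genes tested. The gene lies on chromosome 2, from 133552159 to 133562885 on the plus strand of GRCm38 (GENCODE M21), the assembly of the build named for the files. Its level was 14.6, 14.5 and 13.3 CPM in the 3 WT libraries, and 37.0, 42.9 and 57.5 CPM in the 3 Δ306 libraries. In the 6 Δ93 libraries it ran from 26.1 through a median of 58.7 to 67.0 CPM, and in the 6 Δ225 libraries from 8.42 through a median of 8.91 to 11.3 CPM. Every Δ306 and every Δ93 library lay above all WT libraries, and every Δ225 library lay below them. The 4 Δ104 libraries were at 76.1, 40.0, 9.24 and 8.27 CPM, so that replicates 1 and 2 lay within or above the range of Δ93 while replicates 3 and 4 lay below WT.

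In edgeR's quasi-likelihood test over 22941 genes with Benjamini-Hochberg adjustment, Bmp2 rose 3.83-fold in Δ93 against WT (log2 fold change 1.94 ± 0.50 SE, adjusted p = 0.0137). Leaving out any of the 3 WT libraries raised this adjusted p to between 0.0639 and 0.0669, and leaving out the libraries low in Y-linked genes raised it to 0.0701, at similar fold changes. In Δ306 the log2 fold change against WT was 1.70 ± 0.54, with an adjusted p of 0.0628 that misses the threshold of 0.05. The groups did not overlap, which was so for 37.6% of all genes. The Bmp2 difference passed with DESeq2 (adjusted p = 0.019), when only the WT and Δ306 libraries were fitted with edgeR (adjusted p = 0.00223) and in the separately counted table of those 6 libraries (log2 fold change 1.78, adjusted p = 0.00188). These runs called 11.9%, 17.5% and 18.8% of all genes, beside 6.43% in the main fit. Against WT, the values in Δ104 (1.25 ± 0.51, adjusted p = 0.259) and in Δ225 (-0.60 ± 0.45, adjusted p = 0.498) did not pass.

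**Figure D1:**
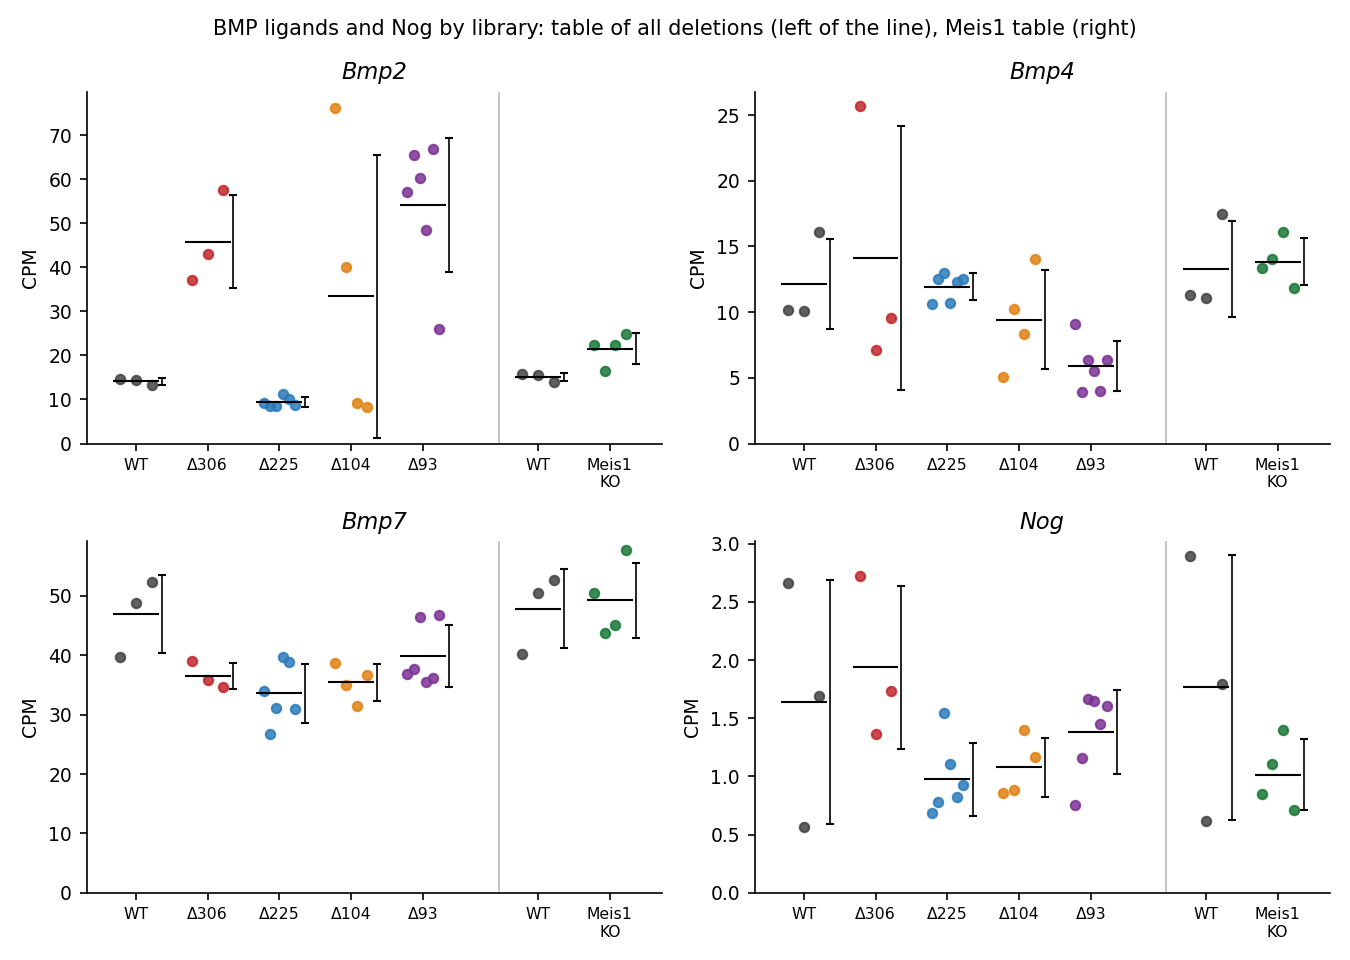
Level of Bmp2, Bmp4, Bmp7 and Nog in CPM (vertical axis) in every library of each group (points), with the group mean (horizontal line) and SD (error bar); the table of all deletions is left of the grey line and the Meis1 table right of it. Bmp2 lies at 37.0 CPM or more in Δ306 and at 11.3 CPM or less in Δ225, and the 4 Δ104 libraries spread from 8.27 to 76.1 CPM.

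Bmp2 was lower in Δ225 than in each of the other deletions. It was 5.79-fold lower in Δ225 than in Δ93 (log2 fold change -2.53 ± 0.40, adjusted p = 1.85e-04, edgeR) and 4.90-fold lower in Δ225 than in Δ306 (-2.29 ± 0.44, adjusted p = 0.00239). Both calls held in every alternative run, 21 for Δ93 and 18 for Δ306. The value of Δ225 against Δ104 was -1.84 ± 0.42 (adjusted p = 0.041), but it rests on Δ104 replicates 1 and 2: without replicate 1 it was -1.04 (adjusted p = 0.622), and without replicate 2 it was -1.76 (adjusted p = 0.138). Leaving out any of the 6 Δ225 libraries also ended this call (adjusted p = 0.0648 to 0.0986), as did the replicate number as a block (0.363), the fit of these groups alone (0.55) and leaving out the libraries low in Y-linked genes (0.0837). Between Δ93, Δ306 and Δ104 no difference in Bmp2 passed, with log2 fold changes of 0.24 ± 0.46 for Δ93 against Δ306, 0.69 ± 0.42 for Δ93 against Δ104 and -0.45 ± 0.49 for Δ104 against Δ306. Without Δ104 replicate 1, the difference between Δ93 and Δ104 was 1.52 (adjusted p = 0.035).

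Several lists of cell type markers moved with Bmp2 or against it. Those of pre-granulosa cells (Foxl2, Wnt4, Rspo1, Irx3 and Fst, 5 of 5 measured and none at 0 in any library) and of meiotic germ cells moved with Bmp2. Those of Sertoli, fetal Leydig and interstitial cells moved the other way in Δ306 and Δ93. The pre-granulosa markers summed to 49.9 to 96.9 CPM in WT, 56.2 to 97.3 in Δ225, 341 to 680 in Δ306 and 404 to 1021 in Δ93. In Δ104 replicates 1 to 4 it was 646, 312, 131 and 58.8 CPM, the same order as Bmp2 in those 4 libraries. The 7 Sertoli markers summed to 1884 to 2350 CPM in WT, 568 to 2139 in Δ225, 86.4 to 488 in Δ306, 56.1 to 830 in Δ93 and 39.0, 383, 956 and 1903 in Δ104. The 3 meiotic markers (Stra8, Sycp3 and Rec8) summed to 3.17 to 6.88 CPM in WT, 4.11 to 29.9 in Δ225, 83.8 to 221 in Δ306, 127 to 592 in Δ93 and 182, 128, 8.43 and 14.5 in Δ104, with 1 of them at 0 in WT replicate 1 and in Δ225 replicate 3. The 5 fetal Leydig markers summed to 902 to 1554 CPM in WT, 452 to 3045 in Δ225, 39.8 to 91.3 in Δ306, 50.1 to 314 in Δ93 and 37.8, 423, 1483 and 1629 in Δ104. The 4 interstitial markers summed to 1116 to 1270 CPM in WT, 947 to 1207 in Δ225, 406 to 586 in Δ306, 440 to 542 in Δ93 and 386, 804, 1294 and 1071.5 in Δ104. The smooth muscle and endothelial sums, given below with Smad7, were also below WT in Δ306 and Δ93. In bulk tissue a change in the number of cells of a type and a change of RNA per cell cannot be told apart. The part of all these lists in the level of Bmp2 was not tested.

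**Figure D2:**
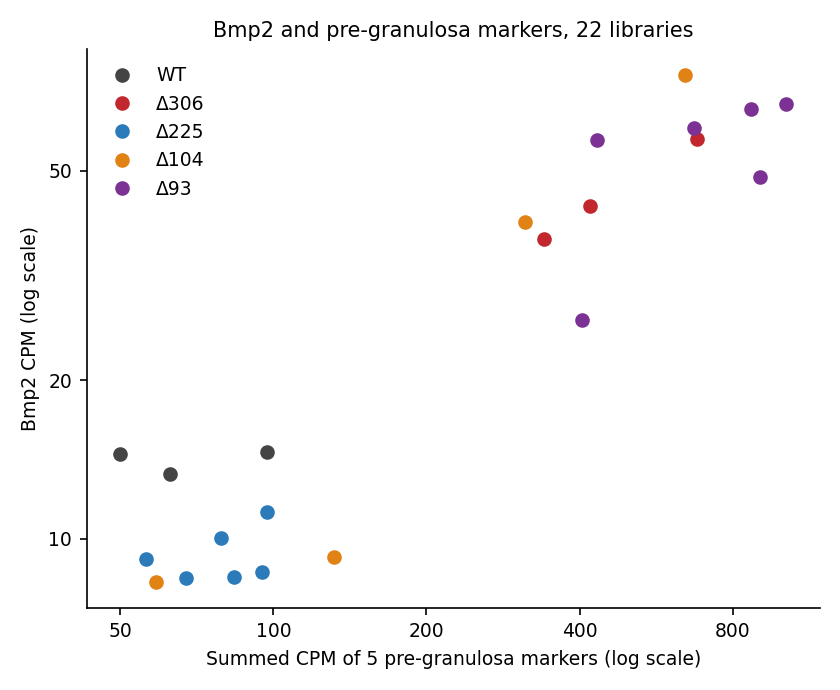
Level of Bmp2 (vertical axis, CPM, log scale) against the summed level of the 5 pre-granulosa markers (horizontal axis, CPM, log scale) in the 22 libraries of the table of all deletions, coloured by group. The Δ306 and Δ93 libraries and Δ104 replicates 1 and 2 have 312 CPM or more of the markers and 26.1 CPM or more of Bmp2, and all other libraries have at most 131 CPM of the markers and at most 14.6 CPM of Bmp2.

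The 3 genes whose deviations from their own mean over the 22 libraries were most like those of Bmp2, among 16153 genes with a mean of at least 1 CPM, were Ryr2, which encodes a calcium release channel, Anpep, an aminopeptidase, and Bhlhe41, a transcriptional repressor. Their root-mean-square differences from Bmp2 were 0.34, 0.35 and 0.39 in log2 CPM, against a median of 1.25 over all genes.

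Bmp4 went the other way in Δ93. Its level was 10.2, 10.1 and 16.1 CPM in WT, and in Δ93 it ran from 3.94 through a median of 5.94 to 9.10 CPM, below all WT libraries. In Δ225 it ran from 10.6 through a median of 12.4 to 13.0 CPM, a narrow range inside that of WT. The Δ306 libraries were at 25.7, 7.11 and 9.57 CPM and the Δ104 libraries at 5.03, 10.2, 8.37 and 14.1 CPM, and both groups overlapped WT.

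Bmp4 was 2.06-fold lower in Δ93 than in WT (log2 fold change -1.04 ± 0.34, adjusted p = 0.0423, edgeR). This call was lost without any 1 of the 3 WT libraries (adjusted p = 0.0643 to 0.201), without any 1 of Δ93 replicates 2 to 6 (0.057 to 0.0856), with the replicate number as a block (0.0631), with no filter on low counts (0.051) and without the libraries low in Y-linked genes (0.363). Bmp4 was 2.03-fold higher in Δ225 than in Δ93 (1.02 ± 0.29, adjusted p = 0.0153), and no library of the 2 groups overlapped. That call was lost without the libraries low in Y-linked genes (0.93, adjusted p = 0.388) and without the 3 shallowest Δ225 libraries (1.01, adjusted p = 0.0598). In Δ306 against WT the log2 fold change was 0.22 ± 0.40 (adjusted p = 0.798), a mean raised by replicate 1. Against Δ306, Δ93 was lower by a log2 fold change of -1.26 ± 0.34 that did not pass (adjusted p = 0.221).

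Bmp4 lies on chromosome 14, from 46383520 to 46390669 on the minus strand. It overlaps 2 genes of the opposite strand, Gm15217 and Gm15222. The library kit was directional, but whether the counting used the strand is not given in the sources used here, so reads of Bmp4 and of these genes may not have been told apart. The 250 bases upstream of the RefSeq start of Bmp4 (GRCm38.p6, chr14:46390670-46390919, minus strand) are shown because Bmp4 is the ligand that was lower in Δ93. The letters GGAGCC, the core of a GC-rich Smad1/5-type element, were searched on both strands, and the match, read here as its reverse complement, is in capitals.
Bmp4 upstream window: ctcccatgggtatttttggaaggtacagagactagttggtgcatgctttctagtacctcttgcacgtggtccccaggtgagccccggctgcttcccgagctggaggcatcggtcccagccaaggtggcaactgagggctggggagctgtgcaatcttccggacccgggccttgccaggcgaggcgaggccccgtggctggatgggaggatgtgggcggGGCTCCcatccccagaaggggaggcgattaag
The window held GGAGCC 1 time and neither GGCGCC, a palindrome searched as the related GC-rich element, nor CAGAC, the extended Smad box. Of 32851 upstream windows of the same length, 26.0% held GGAGCC, 9.59% held GGCGCC and 42.2% held CAGAC on either strand. A match describes the letters of the window and says nothing of binding.

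The genes most like Bmp4 over the 22 libraries were Mfsd2a, which encodes a lipid transporter, Akap12, a kinase-anchoring protein, and Klf4, a zinc-finger transcription factor. Their root-mean-square differences from Bmp4 were 0.38, 0.39 and 0.39 in log2 CPM, against a median of 0.76 over all genes.

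Bmp7 varied least among the ligands. It was at 39.7, 48.9 and 52.3 CPM in WT, at 39.1, 35.8 and 34.7 CPM in Δ306 and at 38.7, 34.9, 31.4 and 36.7 CPM in Δ104. Both of these groups lay below all WT libraries, by a gap of less than 1 CPM below WT replicate 1 in Δ306. Δ225 ran from 26.8 through a median of 32.6 to 39.8 CPM and Δ93 from 35.5 through 37.3 to 46.8 CPM, and both overlapped WT. The log2 fold changes against WT were -0.48 ± 0.14 in Δ225 (adjusted p = 0.135), -0.41 ± 0.15 in Δ104 (0.231), -0.36 ± 0.16 in Δ306 (0.191) and -0.23 ± 0.14 in Δ93 (0.285), so that all 4 means were lower and none passed edgeR's test. DESeq2 called the difference in Δ225 (log2 fold change -0.45, adjusted p = 0.033).

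The antagonists of the list were scarce. Nog, which encodes noggin, was at 2.66, 0.563 and 1.69 CPM in WT (106, 29 and 64 counts) and at 2.72, 1.37 and 1.73 CPM in Δ306. It ran from 0.683 through 0.874 to 1.55 CPM in Δ225, was at 0.861, 0.885, 1.395 and 1.17 CPM in Δ104, and ran from 0.754 through 1.53 to 1.67 CPM in Δ93. The WT libraries alone spanned nearly the whole range, every group overlapped WT, and the log2 fold changes against WT lay between -0.73 ± 0.38 in Δ225 and 0.24 ± 0.45 in Δ306 with no adjusted p under 0.345. Grem1, which encodes gremlin 1, had 0 to 6 counts per library in the table of all deletions and 1 to 7 in the Meis1 table. It did not pass the filter on low counts and was not tested, and the 0 counts of Δ104 replicate 4 and Δ93 replicate 5 allow up to 3 counts each, which covers counting error only.

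Smad7, the inhibitory Smad that blocks BMP and TGF-β receptors, was lower in the Δ306 gonads. It was at 81.2, 63.6 and 59.0 CPM in WT and at 35.2, 38.5 and 33.8 CPM in Δ306, with all Δ306 libraries below all WT libraries. In Δ93 it ran from 34.1 through a median of 45.5 to 58.3 CPM, also below every WT library, but narrowly so, with the lowest WT library at 59.0 CPM. Δ225 ran from 43.3 through 64.7 to 80.0 CPM, and the Δ104 libraries were at 36.3, 55.2, 71.7 and 71.4 CPM, so that both overlapped WT, with Δ104 replicate 1 lowest.

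Smad7 was 1.89-fold lower in Δ306 than in WT (log2 fold change -0.92 ± 0.25, adjusted p = 0.0345, edgeR). It was the only gene of the 9 tested that was called there, or 11.1%, beside 6.43% of all 22941 genes. The fold change kept its size, from -0.80 to -1.05, when each library was left out in turn, but the call was lost each time (adjusted p = 0.0542 to 0.136), and also without a composition factor (0.0571). In Δ93 the value against WT was -0.61 ± 0.21 (adjusted p = 0.0619), which passed with DESeq2 (0.0362) and in the fit of these groups alone (0.0313). Smad7 was 1.75-fold higher in Δ225 than in Δ306 (0.80 ± 0.23, adjusted p = 0.0233), with no overlap, and the call was lost without any 1 Δ306 library (0.0673 to 0.111), with the replicate block (0.0849) and without the libraries low in Y-linked genes (0.209). Against Δ93 the value in Δ225 was 0.49 ± 0.18 (adjusted p = 0.0562). It passed in 6 of 21 alternatives: RLE normalization (0.0409), DESeq2 (0.026), without Δ225 replicate 1 (0.0182) or 3 (0.0481), without Δ93 replicate 6 (0.0356) and without the 3 shallowest Δ225 libraries (0.76, adjusted p = 0.0114).

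The groups low in Smad7 were also lower in markers of several other cell types, among them the Sertoli and fetal Leydig markers given above. Their pre-granulosa and meiotic markers were higher. The 5 endothelial markers summed to 405 to 551 CPM in WT, 264 to 374 in Δ306 and 269 to 388 in Δ93, and the 4 interstitial markers to 1116 to 1270 CPM in WT, 406 to 586 in Δ306 and 440 to 542 in Δ93. In Δ225 the same sums were 253 to 521 and 947 to 1207 CPM. The endothelial median was 346 CPM in Δ225, 339 in Δ93, 317 in Δ306 and 481 in WT. The 3 smooth muscle markers summed to 176 to 227 CPM in WT, 55.3 to 72.5 in Δ306, 72.1 to 145 in Δ93 and 182 to 346 in Δ225. No endothelial, interstitial or smooth muscle marker was at 0 in any library. The part of all these marker lists in the level of Smad7 was not tested. The genes most like Smad7 were Camkk2, a kinase of the calcium pathway, Rhou, a small GTPase, and Bcar3, an adaptor protein, with root-mean-square differences of 0.16, 0.16 and 0.17 in log2 CPM against a median of 0.56.

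Smad6, the inhibitory Smad that acts mainly on BMP signals (chromosome 9, 63953076 to 64022059, minus strand), did not separate the groups. It was at 52.8, 34.7 and 34.0 CPM in WT, at 34.4, 30.4 and 31.1 CPM in Δ306 and at 24.5, 31.8, 54.1 and 42.5 CPM in Δ104. It ran from 18.2 through 33.3 to 63.8 CPM in Δ225 and from 20.3 through 36.9 to 53.9 CPM in Δ93. Every deletion overlapped WT, and the log2 fold changes against WT were between -0.34 ± 0.39 in Δ306 and -0.09 ± 0.37 in Δ104, with adjusted p of 0.663 in Δ306, 0.827 in Δ225, 0.862 in Δ93 and 0.923 in Δ104. The spread of Smad6 lay within the groups, most of all within Δ225.

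The upstream window of Smad6 (GRCm38.p6, chr9:64022060-64022309, minus strand) is shown as that of a feedback target, with the GGAGCC matches in capitals.
Smad6 upstream window: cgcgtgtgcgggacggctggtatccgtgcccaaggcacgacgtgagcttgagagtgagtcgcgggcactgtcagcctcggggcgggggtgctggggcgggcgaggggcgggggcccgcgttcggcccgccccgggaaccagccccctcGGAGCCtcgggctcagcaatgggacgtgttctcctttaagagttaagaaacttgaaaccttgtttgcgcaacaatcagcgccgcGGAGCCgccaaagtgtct
It held GGAGCC 2 times, and GGCGCC and CAGAC 0 times each. Windows of 5 of the 10 genes were searched, and among these GGAGCC was found in Bmp4, Smad6, Id2 and Id3 and not in Grem1. GGCGCC was found in Grem1 and Id2 alone, and CAGAC in Grem1 and Id3 alone. The 5 windows were 62.8% to 72.0% G or C. They were not tested against the 26.0% of all 32851 windows that held GGAGCC. Bmp2, Bmp7, Nog and Id1 had no RefSeq entry in the source used, and the window of Smad7 is not reported here.

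Id1 was the Id gene with the clearest differences. Id proteins dimerise with basic helix-loop-helix factors and keep them from DNA, and Id1 is a widely used readout of BMP activity. The gene lies on chromosome 2, from 152736251 to 152737410 on the plus strand. It was at 47.7, 36.5 and 37.4 CPM in WT, at 58.4, 64.3 and 64.4 CPM in Δ306 and at 48.5, 59.7, 71.9 and 58.6 CPM in Δ104, with every Δ306 and Δ104 library above WT. In Δ93 it ran from 41.2 through a median of 66.3 to 74.4 CPM, where only replicate 1 fell within the WT range. In Δ225 it ran from 23.5 through 34.2 to 48.2 CPM, on both sides of WT.

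Against WT the log2 fold changes of Id1 were 0.63 ± 0.23 in Δ93 (adjusted p = 0.0697), 0.62 ± 0.26 in Δ306 (0.153), 0.56 ± 0.24 in Δ104 (0.284) and -0.21 ± 0.22 in Δ225 (0.638), so none passed. The Δ306 value passed in the fit of WT and Δ306 alone (adjusted p = 0.0268) and in their own table (0.70, adjusted p = 0.0148), and the Δ93 value passed without Δ93 replicate 1 (0.76, adjusted p = 0.0209), with DESeq2 (0.0282) and in the fit of WT and Δ93 alone (0.0415). Between deletions, Id1 was 1.78-fold lower in Δ225 than in Δ93 (-0.84 ± 0.18, adjusted p = 0.00279) and 1.78-fold lower in Δ225 than in Δ306 (-0.83 ± 0.22, adjusted p = 0.0156). Fitting these groups alone (0.0549) or dropping Δ306 replicate 2 (0.0908) or Δ306 replicate 3 (0.109) ended the call against Δ306, and without the libraries low in Y-linked genes both were lost (0.179 against Δ93 and 0.112 against Δ306). Against Δ104 the value was -0.77 ± 0.20 (adjusted p = 0.0874).

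Both Id1 calls for Δ225 depended on 3 of its libraries. Δ225 replicates 1 to 3 had 11582619, 23324009 and 20213043 counts, and replicates 4 to 6 had 46821225, 42971611 and 41255482. Id1 was at 23.5, 26.0 and 25.4 CPM in the former and at 48.2, 42.3 and 44.5 CPM in the latter. The latter also lay below all Δ306 libraries (58.4 CPM or more) and overlapped Δ93, whose lowest library was at 41.2 CPM. Without replicates 1 to 3, an alternative chosen after the data were seen, the difference from Δ93 was -0.48 (adjusted p = 0.0574) and from Δ306 -0.47 (adjusted p = 0.093). Bmp2 kept its calls without replicates 1 to 3, at -2.44 against Δ93 (adjusted p = 0.00668) and -2.19 against Δ306 (adjusted p = 0.0159).

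The same 3 libraries stood apart for Id3, Smad6 and Smad7 as well. Id3 was at 19.6, 51.2 and 56.5 CPM in Δ225 replicates 1 to 3 and at 129, 106 and 105 CPM in replicates 4 to 6. The median of the 3 deeper libraries was 1.75 times that of the 3 shallower ones for Id1, 2.07 times for Id3, 2.44 times for Smad6 and 1.51 times for Smad7, and for these 4 genes the libraries did not overlap. Bmp2, Bmp4, Bmp7, Nog and Id2 did overlap, with ratios of 1.19, 0.981, 1.25, 1.19 and 0.928. The share of all genes that did not overlap in this split was not computed, so it does not set these genes apart from others. Over all genes, replicates 1 to 3 differed from replicates 4 to 6, relative to counting error, by more than replicates 4 to 6 differed among themselves. Replicates 1 to 3 also had the lower Sertoli sums of the group, 568, 827 and 673 CPM against 2068, 2139 and 1708 CPM, and the higher mitochondrial shares, 11.6%, 5.48% and 3.06% of counts against 2.56% to 3.01%. In Δ93, replicate 1 was the only library under 25000000 counts (20641724). It was the lowest Δ93 library for Id1, Id3 and Smad6, at 41.2, 71.9 and 20.3 CPM, but not for Smad7. Whether depth, RNA quality or cell composition moved these genes was not tested.

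**Figure D3:**
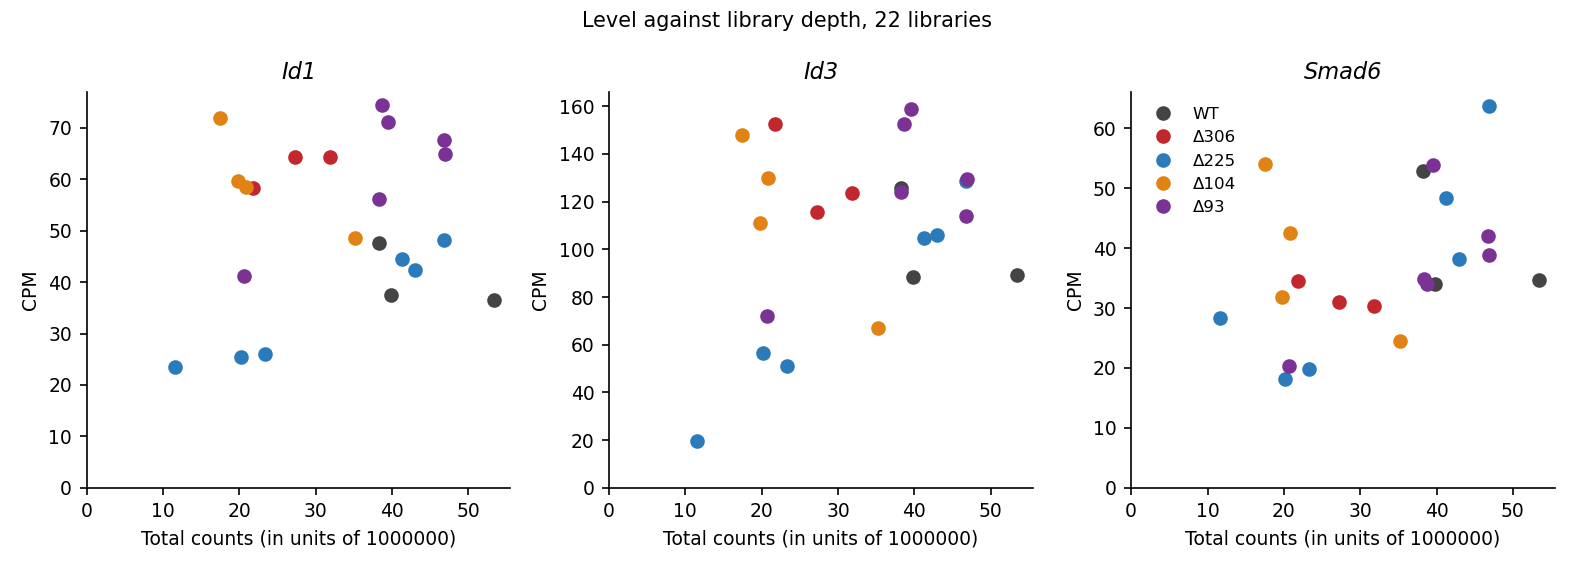
Level of Id1, Id3 and Smad6 (vertical axis, CPM) against the total counts of the library (horizontal axis, counts) in the 22 libraries of the table of all deletions, coloured by group. Within Δ225 the 3 libraries under 25000000 counts lie below the 3 deeper ones in each panel. Δ93 replicate 1, at 20641724 counts, is the lowest Δ93 library in each panel. The Δ104 libraries of 17475220 to 20810635 counts lie at 58.6 CPM or more of Id1.

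Id2 and Id3 overlapped WT in every deletion. Id2 was at 65.8, 54.1 and 57.6 CPM in WT, 73.7, 51.1 and 61.5 CPM in Δ306 and 54.7, 82.9, 120.1 and 72.2 CPM in Δ104, and it ran from 42.4 through 51.4 to 72.3 CPM in Δ225 and from 48.1 through 59.9 to 91.5 CPM in Δ93. Δ104 replicate 3 was the highest library. The log2 fold changes of Id2 against WT were 0.48 ± 0.24 in Δ104 (adjusted p = 0.341) and between -0.14 and 0.16 in the others. Id3 was at 126, 89.4 and 88.2 CPM in WT, at 152, 124 and 116 CPM in Δ306 and at 67.0, 111, 148 and 130.1 CPM in Δ104, and ran from 71.9 through 127 to 159 CPM in Δ93 and from 19.6 through 80.5 to 129 CPM in Δ225. Its log2 fold changes against WT ran from -0.37 ± 0.38 in Δ225 to 0.37 ± 0.44 in Δ306, and WT replicate 1 was the highest WT library for Id1, Id2 and Id3 alike. With the replicate number as a block, Id3 was lower in Δ225 than in Δ306 (-1.36, adjusted p = 0.0183) and than in Δ93 (-0.82, adjusted p = 0.037), where the unblocked values were -0.74 ± 0.37 (0.195) and -0.68 ± 0.31 (0.124).

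The genes most like Id1 were Pwwp2b, which encodes a PWWP-domain protein, Eci2, an enzyme of fatty acid oxidation, and Bri3, a brain-expressed membrane protein, at 0.25, 0.25 and 0.26 in log2 CPM against a median of 0.60. For Id3 they were C1qtnf12, Slc66a2 and Aprt at 0.23, 0.27 and 0.29, and for Smad6 they were Cpe, Htra1 and Rhob at 0.21, 0.29 and 0.30, against medians of 0.76 and 0.59; these last 2 genes were added to the rule after their values had been seen.

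**Figure D4:**
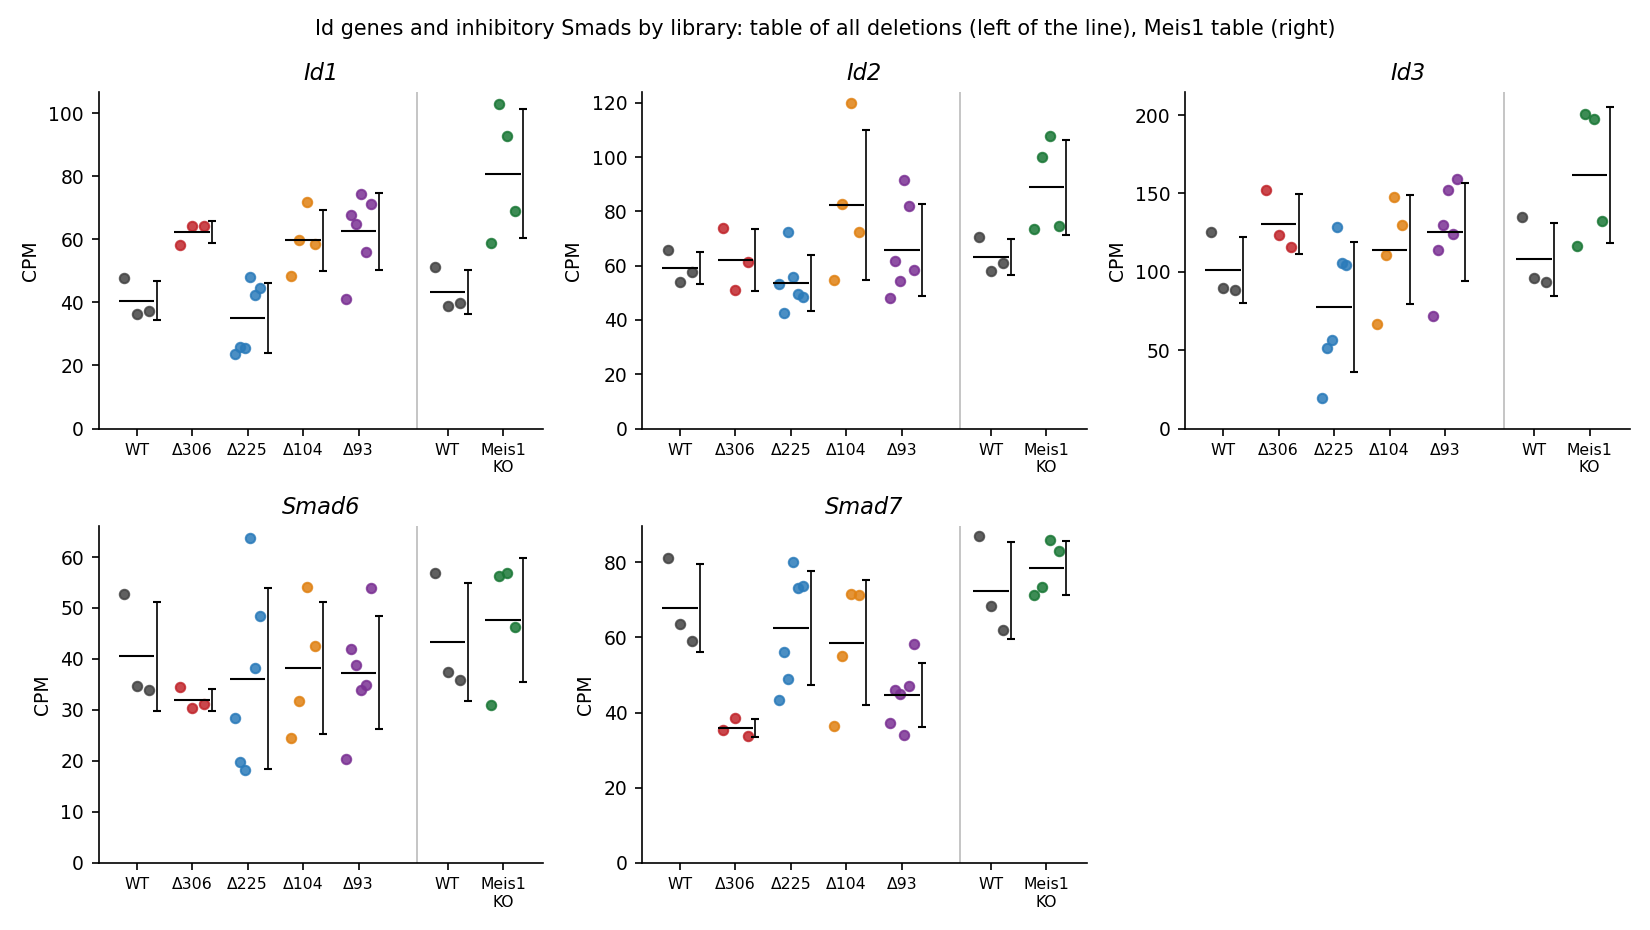
Level of Id1, Id2, Id3, Smad6 and Smad7 in CPM (vertical axis) in every library of each group (points), with the group mean (horizontal line) and SD (error bar); the table of all deletions is left of the grey line and the Meis1 table right of it. Id1 lies above the 3 WT libraries in all Δ306, Δ104 and Meis1 KO libraries, and Smad7 lies below them in all Δ306 and Δ93 libraries. The Smad7 gap is narrow in Δ93, whose highest library is at 58.3 CPM, with the lowest WT library at 59.0 CPM.

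Counted over the 9 genes tested, 1 of 9 was called in Δ306 against WT (6.43% of all genes), 2 of 9 in Δ93 (Bmp2 higher and Bmp4 lower, 14.1% of all genes), 0 of 9 in Δ225 (0.209%) and 0 of 9 in Δ104 (0.061%). In the 2 comparisons with 0 calls, 1 gene in Δ225 (Bmp7) and 3 in Δ104 (Bmp2, Bmp7 and Id1) had an unadjusted p under 0.05. So had 3687 and 3610 of all 22941 genes. DESeq2 called 1 and 0 of the 9 genes, beside 3.57% and 2.66% of all genes. Between deletions, 3 of 9 were called in Δ225 against Δ93 (20.8% of all genes), 3 of 9 in Δ225 against Δ306 (13.2%) and 1 of 9 in Δ225 against Δ104 (0.645%). None was called in Δ104 against Δ306 (0.0654%), Δ93 against Δ306 (0.0785%) or Δ93 against Δ104 (0.0523%). There, 1 gene each had an unadjusted p under 0.05 (Smad7, Bmp4 and Bmp4), beside 2547, 2065 and 3326 of all genes. DESeq2 called 0, 1 and 0 of the 9 genes in these, beside 1.81%, 0.763% and 2.41% of all genes. With so few genes, these counts are read gene by gene.

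Groups did not overlap with WT for 4 of the 9 genes in Δ306 (37.6% of all genes), 3 in Δ93 (24.7%), 2 in Δ104 (18.1%) and 1 in Δ225 (10.1%). Between deletions the number was 2 for Δ225 against Δ93 (11% of all genes), 3 against Δ306 (20.2%) and 1 against Δ104 (1.67%), and it was 0 for Δ104 against Δ306 (11.2%), Δ93 against Δ306 (6.38%) and Δ93 against Δ104 (1.89%). The median log2 fold change of the 9 genes against WT was 0.22 in Δ306, -0.12 in Δ93, -0.09 in Δ104 and -0.21 in Δ225, beside 0.08, 0.06, 0.06 and 0.04 over all genes tested. In Δ225 all 9 values were below 0 in the main fit, and none was called. Of 18 alternatives, the sign changed in 4 for Bmp4, in 2 each for Smad6 and Smad7, and in 1 each for Id1 and Id3.

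**Figure D5:**
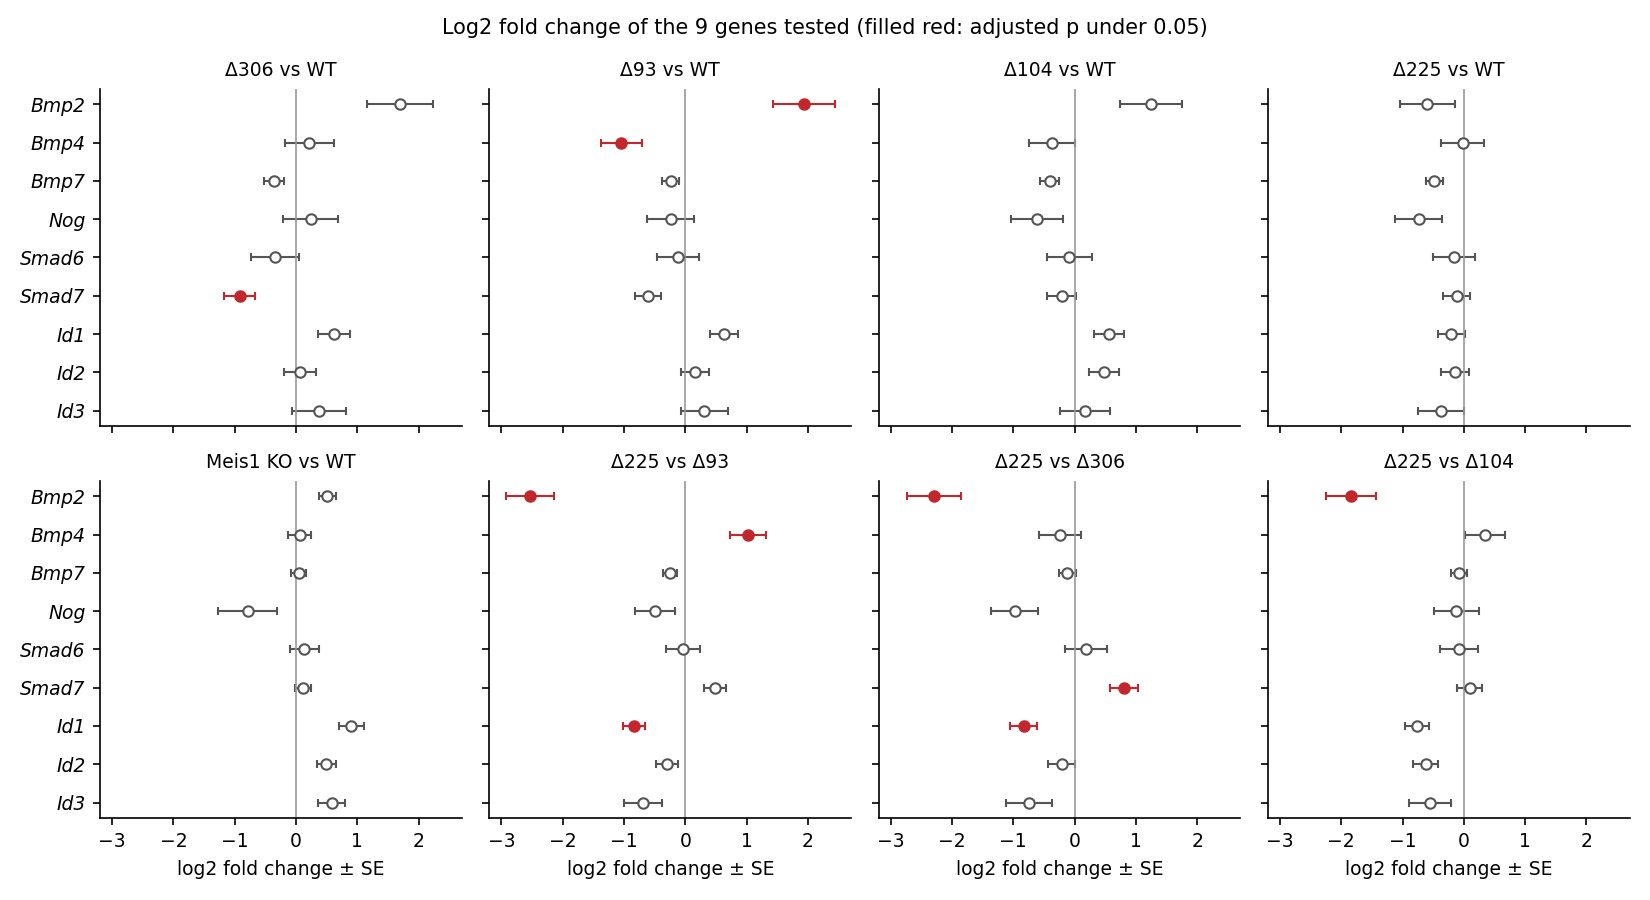
Log2 fold change (horizontal axis) of the 9 genes tested in 8 comparisons, as points with the standard error as bars; filled red points have an adjusted p under 0.05 in edgeR's quasi-likelihood test. Bmp2 is the gene called most often, higher in Δ93 than in WT and lower in Δ225 than in Δ93, Δ306 and Δ104, and no gene is called in Δ104, Δ225 or Meis1 KO against WT.

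In the Meis1 knockout gonads the Id genes and Bmp2 were at higher mean levels than in WT, and none of the 9 genes tested was called (1.8% of 16791 genes were). Bmp2 was at 22.4, 16.5, 22.4 and 24.8 CPM in Meis1 KO and at 15.7, 15.6 and 14.1 CPM in WT in this table. Id1 was at 58.8, 103, 92.8 and 69.0 CPM in Meis1 KO against 51.2, 38.9 and 39.8 CPM in WT. Id2 was at 73.5, 99.9, 108 and 74.5 CPM against 70.6, 58.2 and 60.9 CPM. These 3 genes were higher in all 4 Meis1 KO libraries than in all 3 WT libraries, where 19.7% of all genes did not overlap. Id3 was at 117, 201, 198 and 132 CPM against 135, 95.8 and 93.4 CPM and overlapped WT through WT replicate 1.

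The log2 fold changes in Meis1 KO against WT were 0.90 ± 0.20 for Id1 (adjusted p = 0.0675, edgeR), 0.51 ± 0.14 for Bmp2 (0.106), 0.49 ± 0.15 for Id2 (0.137) and 0.58 ± 0.22 for Id3 (0.207). These 4 genes had unadjusted p under 0.05, as had 3239 of all 16791 genes. The calls depended on whether WT replicate 1 was kept and on the test used. That library had few germ-cell transcripts, and their part in the calls was not tested. Without WT replicate 1, all 4 passed in edgeR, with Id1 at 1.04 (adjusted p = 0.0173), Id2 at 0.58 (0.0434), Id3 at 0.78 (0.0445) and Bmp2 at 0.54 (0.0483). That fit called 12.9% of all genes. DESeq2 with all libraries called Id1 (0.88, adjusted p = 8.09e-04), Bmp2 (0.0228) and Id2 (0.0468), and 9.24% of all genes. The 5 pre-granulosa markers summed to 82.9 to 108 CPM in Meis1 KO and 53.5 to 105 CPM in WT, and within that list Foxl2 rose from 0.821 to 6.16 CPM in the means (2.90 ± 0.19, adjusted p = 7.53e-04).

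The other 5 genes tested overlapped WT in Meis1 KO. Bmp4 was at 13.3, 14.1, 16.1 and 11.8 CPM against 11.3, 11.1 and 17.5 CPM in WT, and Bmp7 at 50.4, 43.7, 45.2 and 57.7 CPM against 40.3, 50.6 and 52.7 CPM. Smad6 was at 31.0, 56.3, 56.9 and 46.3 CPM against 56.8, 37.4 and 35.8 CPM, and Smad7 at 71.4, 73.5, 86.0 and 83.1 CPM against 87.0, 68.3 and 62.1 CPM. Nog was at 0.847, 1.103, 1.4 and 0.709 CPM against 2.89, 0.613 and 1.79 CPM. Their log2 fold changes were 0.06 ± 0.18 for Bmp4, 0.04 ± 0.13 for Bmp7, 0.14 ± 0.24 for Smad6, 0.12 ± 0.13 for Smad7 and -0.79 ± 0.48 for Nog.

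The rest of the pathway was read from a list of 51 other genes, of which 49 were tested in the table of all deletions. The list was written with earlier results of these data known, so its shares beside those of all genes are no test of the pathway. In Δ306 against WT, 5 rose and 9 fell, 28.6% of those tested beside 6.43% of all genes (2.96% higher and 3.46% lower). In Δ93 against WT, 5 rose and 11 fell, 32.7% beside 14.1% (7.23% higher and 6.84% lower). None was called in Δ225 or Δ104 against WT. The median log2 fold change of the 49 genes was -0.36 in Δ306 and -0.30 in Δ93, beside 0.08 and 0.06 over all genes. Alternative runs are not given for single genes of this list. Without the libraries low in Y-linked genes, the calls over all genes fell to 25 in Δ306 against WT and to 9 in Δ93 against WT. Only replicates 1 and 2 of each of these deletions remained in that run.

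Among the targets, the homeobox genes Msx1 and Msx2 rose furthest. Msx1 was at 2.34, 2.76 and 2.88 CPM in WT, at 31.2, 40.5 and 53.9 CPM in Δ306, and at 41.9, 20.5, 6.92 and 2.38 CPM in Δ104, with replicate 1 highest and replicate 4 lowest as for Bmp2. Its log2 fold change against WT was 3.98 ± 0.72 in Δ306 (adjusted p = 0.00526) and 4.32 ± 0.70 in Δ93 (9.13e-04), and that of Msx2 was 3.08 ± 0.72 (0.0154) and 3.70 ± 0.70 (0.0021). Both were lower in Δ225 than in Δ93 (-4.33 ± 0.52 for Msx1 and -3.53 ± 0.52 for Msx2), and they were the 2 genes of the list called in Δ225 against Δ104 (-2.77 ± 0.52, adjusted p = 0.0134, and -2.70 ± 0.54, adjusted p = 0.0166). Of the other 3 targets listed, Id4, Hey1 and Atoh8, none was called in these comparisons with WT.

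Of the 14 antagonists and modulators, 4 fell and 2 rose in Δ306, and 4 fell and 1 rose in Δ93. Sostdc1, a secreted antagonist of BMP and WNT signals, was at 28.8, 21.6 and 26.3 CPM in WT and at 2.46, 2.26 and 1.201 CPM in Δ306 (-3.70 ± 1.09, adjusted p = 0.0455), and at -3.81 ± 0.83 in Δ93 (0.00509). Sost, its relative, fell by 3.30 on the log2 scale in Δ306 and by 2.27 in Δ93 from 2.75 CPM in WT. The chordin-like gene Chrdl1 rose in Δ306 (2.33 ± 0.60), and Chrdl2 rose in Δ306 (1.85 ± 0.49) and in Δ93 (2.28 ± 0.46), both from under 1 CPM in WT.

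Among 10 receptors and co-receptors, Bmpr1b, a type I receptor, rose in Δ306 (1.83 ± 0.54, adjusted p = 0.0454) and in Δ93 (2.03 ± 0.50, 0.0101). The type I receptors Acvr1 (-1.08 ± 0.20 in Δ306 and -0.92 ± 0.16 in Δ93) and Acvrl1, which is known from endothelium (-1.55 ± 0.41 and -1.16 ± 0.34), and the co-receptor Rgma (-0.83 ± 0.19 and -0.59 ± 0.16) fell in both. Of the ligands listed, none was called in Δ306, and Bmp5 (-1.19 ± 0.30) and Bmp8a (-2.45 ± 0.56) fell in Δ93. The transducer Smad5 rose in Δ93 (0.50 ± 0.16, adjusted p = 0.0376), where the protease gene Tll1 (-2.61 ± 0.55) and the ubiquitin ligase gene Smurf1 (-0.52 ± 0.17) fell, and Smurf1 also fell in Δ306 (-0.75 ± 0.20).

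In Δ225 against Δ93, 11 of the 49 genes were higher and 5 lower, beside 9.96% and 10.8% of all genes. In Δ225 against Δ306, 10 were higher and 4 lower, beside 6.47% and 6.74%. In Meis1 KO against WT, 3 of 45 tested were called, 6.67% beside 1.8% of all genes (1.27% higher and 0.53% lower). Among them, Sostdc1 fell by 1.41 on the log2 scale (adjusted p = 0.0352) and Hey1, a target shared with the Notch pathway, rose by 0.74 (adjusted p = 0.0475).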

How the data were processed

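Counts per gene, which the authors deposited as whole numbers without normalization, were used from the table of all deletions (22 libraries) and the Meis1 table (7 libraries, the same WT samples counted separately); a separate table of WT and Δ306 alone served as an alternative. Its mutant columns name no deletion and were taken as Δ306 from the series' design. Symbols came from a deposited comparison table used as a name map. Per the submitters' processing notes, the build was mm10, STAR and DESeq2 were used for all groups, and STAR version 2.7.10a, featureCounts and Subread are named for WT and Δ306 alone; their roles, the annotation and the strand setting are not given in the sources used here. No column was left without a sample (0).

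Genes were filtered with filterByExpr, scaled by TMM and tested with edgeR 4.0.16 in R 4.3.3 (limma 3.58.1) by the quasi-likelihood F-test, with Benjamini-Hochberg adjustment over all genes of each comparison and calls at an adjusted p under 0.05. The 5 Fgf9 groups shared 1 fit (22941 genes, 17 residual degrees of freedom), and Meis1 KO and WT had their own (16791 genes, 5). The SE is the log2 fold change over the root of F. The script was tested on simulated data. Replicates of a group differed by more than sampling noise, so their spread limits the precision.

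The 10 genes and all lists were chosen with earlier results of these data known. All 10 were named; other pathway genes were named where called against WT, at most 4 per class by size with a mean of at least 1 CPM, except that an antagonist so chosen is not reported here. Likeness used log2 CPM with a prior count of 2.

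Alternatives were other normalizations, no filter, DESeq2 1.42.0, the groups compared alone, the separate table, a threshold of 0.01, a replicate block, leaving out each library, those low in Y-linked genes and, added later, Δ225 libraries under 25000000 counts, chosen after seeing the data. No label ties equal replicate numbers to a litter or day.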

Additional observations from a re-analysis of the deposited data

How the results depend on the processing

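Of the log2 fold changes of single genes under all alternatives, 1501 kept their sign and side of the threshold, 56 lost a call, 33 gained one, and 84 changed sign while not called; no called value reversed. The cause was not tested for any change of call.

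The number of the 9 genes called in Δ306 against WT (1) became 0 without a composition factor, without the libraries low in Y-linked genes, at an adjusted p under 0.01 and without each library in turn (0 throughout), 2 with DESeq2 (11.9% of all genes, beside 6.43%), and 3 with the groups compared alone (17.5%) or in the separate table of WT and Δ306 (18.8%). In Δ93 against WT (2) it became 1 with no filter, 4 with DESeq2 (19.9% of all genes, beside 14.1%) or the 2 groups alone (20.3%), 0 without the libraries low in Y-linked genes or at 0.01, and 0 to 3 with each library left out (3 without Δ93 replicate 1, where 15.7% of all genes were called). In Δ225 it became 1 against WT (0) with DESeq2 (3.57%, beside 0.209%). Against Δ93 (3) it became 1 without the libraries low in Y-linked genes, 4 with DESeq2 (25.9%, beside 20.8%) or RLE normalization (21.2%), and 3 to 4 with each library left out. Against Δ306 (3) it became 1 without those libraries and at 0.01, and 1 to 3 with each library left out (1 without Δ306 replicate 2 or 3). Against Δ104 (1) it became 2 with DESeq2 (1.99%, beside 0.645%), 0 without the libraries low in Y-linked genes, with the 2 groups alone, at 0.01 or without the shallow Δ225 libraries, and 0 to 1 with each library left out. Δ93 against Δ306 (0) gave 1 with DESeq2 (0.763%, beside 0.0785%), and Δ93 against Δ104 (0) gave 0 to 1 (1 without Δ104 replicate 1, 3.46%, beside 0.0523%). Meis1 KO against WT (0) gave 3 with DESeq2 (9.24% of all genes, beside 1.8% in the main analysis) and 0 to 4 with each library left out (4 without WT replicate 1, 12.9%).

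Of 35 same-numbered pairs of libraries from different groups, 11 had deviations correlated above 0.1, beside 56 of 154 pairs with unequal numbers. In the Meis1 table it was 2 of 3 (median correlation 0.33) beside 3 of 9 (median -0.19). With so few pairs, the Meis1 values cannot show whether equal numbers pair the samples. With the replicate block the count in Δ225 against Δ104 fell from 1 to 0, the all-gene count in Δ225 against WT moved from 48 to 1638, and Id3, Smad7 and Bmp4 changed calls as given above; in Δ93 against WT, Smad7 passed (-0.82, adjusted p = 0.0162).

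Counts over all genes moved more than 1.5 times in every comparison. Their lowest and highest values were 25 and 3429 for Δ306 against WT (1474), 9 and 4567 for Δ93 (3229), 0 and 611 for Δ104 (14), 0 and 1638 for Δ225 (48), 546 and 6429 for Δ225 against Δ93 (4767), 240 and 4333 against Δ306 (3030), 0 and 1170 against Δ104 (148), 0 and 416 for Δ104 against Δ306 (15), 2 and 175 for Δ93 against Δ306 (18), 2 and 791 for Δ93 against Δ104 (12), and 15 and 2204 for Meis1 KO (303). Without a composition factor the share of calls that were higher went from 46.1% to 61.8% in Δ306 against WT and from 49% to 34.2% in Δ225 against Δ306, and from 16.7% to 4% in Δ93 against Δ306; the all-gene median of Δ225 against Δ306 moved from -0.01 to -0.11. Leaving out a library of a group of 3 leaves 2, with the spread shared with the other groups. Grem1 had too few counts to be tested at this depth.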
